A study of Mus musculus with 10 samples.

Results

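The genes described here are 10 components with which cells receive and transmit hedgehog signals: the receptor Ptch1, the signal transducer Smo, the co-receptors Gas1, Cdon and Boc, the glypican Gpc3, the ciliary protein Evc and the transcription factors Gli1, Gli2 and Gli3. They were measured by RNA sequencing of whole mouse hearts after forced endurance training on a treadmill. The 10 genes belong to the 56748 gene identifiers counted, of which 15454, all 10 among them, held enough counts to be tested. They were selected on earlier results of this same contrast between training and sedentary hearts, in which Ptch1 and several co-receptors were higher, so their fold changes and adjusted p values are given as a description. Evc, Gpc3 and Smo are also among the genes that the study labelled in its heat maps of these hearts, which are therefore no independent evidence of their direction.

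Hedgehog ligands bind PTCH1, which in their absence keeps SMO inactive. Once released, SMO gathers in the primary cilium, and GLI2 and GLI3 are turned from repressors into activators of target genes, among which Ptch1 and Gli1 themselves are used as readouts of the pathway. In the adult heart, hedgehog components have been studied mostly in the coronary vasculature and in stromal cells such as fibroblasts and perivascular cells.

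All hearts came from wild-type male C57BL/6 mice bought at 8 weeks of age. The training group consisted of 5 mice that ran for 8 weeks, at 15 m/min for 120 min per session on 5 days a week. A rest period and an acclimatization to the treadmill came before this training. The sedentary group consisted of 5 mice of the same age without training. Each library was made from 1 whole heart, both atria included. Reads counted on genes ranged from 29461697 to 35945417 in the training and from 35196993 to 39431030 in the sedentary libraries, and levels are given as CPM, the counts scaled to a common library size after TMM correction. The 8 cardiomyocyte marker genes, none without counts, summed to between 57011 and 61211 CPM in training and between 60055 and 68881 CPM in sedentary hearts. In whole-heart RNA, fewer cells of a type and less RNA per cell cannot be told apart.

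Because Ptch1 is both the receptor and a target of GLI factors, the promoters were searched for the GLI-binding consensus GACCACCCA, on either strand and as an exact match. The window ran from 250 bases before to 50 bases after the start of the Ensembl canonical transcript in GENCODE. It held the motif in 44 of 21770 protein-coding genes (0.202%). Among the 10 genes Ptch1 held it and the other 9 did not. Of the 75 other pathway genes described below, 0 held it, Bmp4 and the other reported GLI targets included. No overlapping motif was searched. The letters around the match are shown 5′ to 3′ on the strand of the gene, with the match in capitals, because this is the only window of the 10 genes with the motif. It lies at chr13:63714189-63714317 on the minus strand of GRCm39. Counted from the start of transcription, the match begins at base −165, and reads TGGGTGGTC on the strand of the gene. GENCODE annotates 10 transcript starts for Ptch1, and the canonical one used here (63714092) lies 7320 bases downstream of the first (63721412), so the match is within the annotated gene, outside any exon, and its position holds for this start only.
Ptch1: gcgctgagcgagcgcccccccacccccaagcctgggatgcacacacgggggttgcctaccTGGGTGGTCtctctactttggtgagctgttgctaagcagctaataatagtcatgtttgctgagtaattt
The motif is a match of letters and no measured binding site.

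Ptch1 (ENSMUSG00000021466, chromosome 13 of GRCm39, 63656142 to 63721412, minus strand) was 1.22-fold higher in the training hearts. Its levels were 23.6, 24.3, 24.7, 25.1 and 25.7 CPM in training hearts 1 to 5, and 21.3, 20.6, 19.4, 18.5 and 21.1 CPM in sedentary hearts 1 to 5. Every training heart lay above every sedentary heart. The means were 24.7 ± 0.804 CPM (SD, n = 5) in training and 20.2 ± 1.20 CPM (SD, n = 5) in sedentary mice, a log2 fold change of 0.29 (standard error 0.050, edgeR adjusted p = 0.0124).

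Smo (ENSMUSG00000001761, chromosome 6, 29735407 to 29762532, plus strand), the transducer that PTCH1 holds in check, was at 16.14, 17.0, 18.6, 17.3 and 17.8 CPM in training hearts 1 to 5. In sedentary hearts 1 to 5 it was at 15.998, 15.9, 15.3, 13.4 and 16.08 CPM. The groups did not overlap, but training heart 1 and sedentary heart 5 were nearly level. The log2 fold change of 0.18 (standard error 0.061) had an edgeR adjusted p of 0.119 and was not called at the false discovery rate (FDR) of 0.1 used here. DESeq2, the tool of the study, gave an adjusted p of 0.0753, and without training heart 1 the edgeR value was 0.0938. This was the only 1 of the 10 fits leaving out 1 heart in which Smo was called. Over all 20 alternatives fitted it was called in 4. In GENCODE, Smo shares exon sequence with Gm13717 on the same strand, and Cdon does so with Gm25630. Reads assigned to both genes of such a pair would be in neither count. Whether the annotation behind the counts holds these overlaps was not checked. With RSEM expected counts, which divide shared reads, the log2 fold change of Smo was 0.22 (standard error 0.058, edgeR adjusted p = 0.0629). The part of shared reads in this difference was not tested. EVC (ENSMUSG00000029122, chromosome 5, 37443542 to 37494289, minus strand) binds SMO at the base of the cilium. Evc was at 9.60, 9.51, 11.7, 11.1 and 11.9 CPM in the training hearts and at 9.49, 7.91, 8.60, 8.73 and 9.10 CPM in the sedentary hearts. These groups did not overlap either, though sedentary heart 1 and training heart 2 were nearly level. Its log2 fold change was 0.29 (standard error 0.079, edgeR adjusted p = 0.0600).

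Gas1, Cdon and Boc encode cell-surface proteins that bind hedgehog ligands together with PTCH1 and promote signaling. Gas1 (ENSMUSG00000052957, chromosome 13, 60322219 to 60325179, minus strand) was at 46.9, 41.7, 49.7, 45.1 and 44.9 CPM in training hearts and at 43.2, 36.5, 38.5, 38.3 and 35.6 CPM in sedentary hearts. Only training heart 2 and sedentary heart 1 crossed. The means of 45.7 ± 2.94 and 38.5 ± 2.94 CPM (SD, n = 5 each) corresponded to a log2 fold change of 0.25 (standard error 0.059, edgeR adjusted p = 0.0384). Cdon (ENSMUSG00000038119, chromosome 9, 35332424 to 35418948, plus strand) was at 20.2, 22.8, 25.2, 26.3 and 21.8 CPM in training hearts and at 22.7, 17.0, 18.8, 17.0 and 14.7 CPM in sedentary hearts. Here sedentary heart 1 lay above training hearts 1 and 5, while the other sedentary hearts lay below all training hearts. The log2 fold change was 0.36 (standard error 0.10, edgeR adjusted p = 0.0697). Boc (ENSMUSG00000022687, chromosome 16, 44305290 to 44379432, minus strand) was at 8.35, 8.70, 11.9, 11.8 and 10.1 CPM in training hearts and at 10.2, 8.61, 9.16, 8.91 and 9.37 CPM in sedentary hearts. Training heart 1 was the lowest of all hearts in Boc, and the groups overlapped (log2 fold change 0.13, standard error 0.10, edgeR adjusted p = 0.493).

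Gpc3 (ENSMUSG00000055653, chromosome X, 51361303 to 51703137, minus strand) encodes a heparan sulfate proteoglycan that competes with PTCH1 for ligand and thereby restrains the pathway. It was at 20.2, 16.1, 24.5, 20.6 and 17.9 CPM in training hearts and at 16.05, 14.1, 12.6, 17.5 and 12.2 CPM in sedentary hearts. Training heart 2 lay below sedentary heart 4, and the other training hearts lay above all sedentary hearts. Gpc3 was thus 37.1% higher after training (log2 fold change 0.46, standard error 0.12, edgeR adjusted p = 0.0498).

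The GLI factors were the least abundant of the genes. Gli1 (ENSMUSG00000025407, chromosome 10, 127165751 to 127177865, minus strand), an activator that is itself induced by the pathway, was at 2.26, 1.95, 2.81, 3.21 and 2.49 CPM in training hearts and at 2.19, 1.31, 1.92, 1.42 and 2.55 CPM in sedentary hearts. The groups overlapped, and between 45 and 105 reads per heart stood behind these values. The log2 fold change of 0.43 was among the larger ones but had a standard error of 0.19 and an edgeR adjusted p of 0.221. Gli2 (ENSMUSG00000048402, chromosome 1, 118761858 to 118982598, minus strand), the main activator, was at 3.37, 3.04, 3.69, 3.39 and 2.65 CPM in training and at 2.88, 2.66, 3.14, 2.96 and 2.66 CPM in sedentary hearts. Its groups overlapped as well (log2 fold change 0.18, standard error 0.11, edgeR adjusted p = 0.389). Gli3 (ENSMUSG00000021318, chromosome 13, 15637809 to 15904611, plus strand), the main repressor, was at 2.92, 3.55, 3.45, 2.89 and 3.91 CPM in training and at 2.06, 2.77, 2.87, 3.07 and 2.96 CPM in sedentary hearts, again with overlap (log2 fold change 0.28, standard error 0.13, edgeR adjusted p = 0.233). Gli1 overlaps Arhgap9 on the opposite strand. Counts on that strand made up 5% of the counts on both strands of Gli1, against 0.0685% to 1.38% for the other genes.

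**Figure D1:**
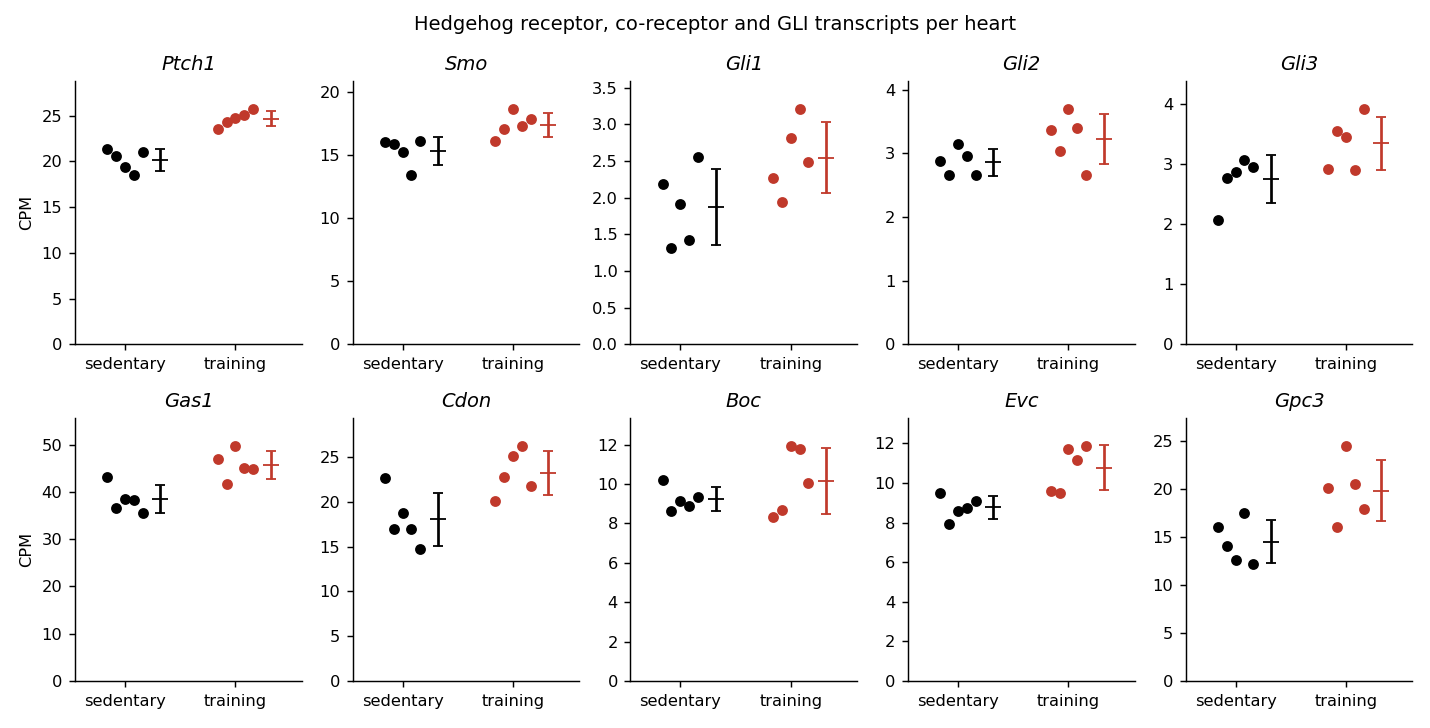
CPM (vertical axes, each from 0) of the 10 transcripts in every heart, 5 sedentary (black) and 5 training (red), with mean and SD beside the points. Ptch1, Smo and Evc show no overlap between the groups, while Boc, Gli1 and Gli2 overlap widely.

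In all, 5 of the 10 genes, Ptch1, Gas1, Cdon, Evc and Gpc3, were called higher in training hearts, and 0 were called lower by edgeR or DESeq2. With edgeR, 8 of the 10 were higher at an unadjusted p below 0.05, beside 9.4% of all genes. Over all 15454 genes tested, 7.01% were called in either direction, 2.75% higher (425 genes) and 4.26% lower (659 genes). With library totals in place of TMM factors the split over all genes was 1029 higher and 339 lower, and 6 of the 10 genes were called higher. DESeq2 called 6 of the 10 genes higher, Smo being added, against 3.99% of all genes. The 3 genes without overlap, Ptch1, Smo and Evc, stood beside 2.12% of all genes for which every training heart lay above every sedentary heart. All 10 genes had a log2 fold change above 0, as did 50.1% of all genes. Their median was 0.288, and that of all genes tested was 0.000259. Since the genes were chosen on this contrast, these shares describe the choice.

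Ptch1 and Gas1 were called in each of the 10 edgeR fits that left out 1 heart. Cdon was called in 4 of them. Its edgeR adjusted p was 0.154 without training heart 3, 0.162 without training heart 4, and 0.141, 0.116, 0.140 and 0.129 without sedentary hearts 2, 3, 4 and 5. Evc was also called in 4, with edgeR adjusted p values of 0.141, 0.130 and 0.127 without training hearts 3, 4 and 5, and of 0.129, 0.122 and 0.110 without sedentary hearts 2, 3 and 4. Gpc3 was called in 5, and its edgeR adjusted p was 0.119 and 0.108 without training hearts 3 and 4, and 0.102, 0.119 and 0.101 without sedentary hearts 2, 3 and 5. The number of the 10 genes called was 2 without training heart 3, training heart 4, sedentary heart 2 or sedentary heart 3, and 3 without sedentary heart 4 or 5. The calls over all genes, 1084 with every heart, fell to 540, 512, 611 and 512 in the first 4 of these fits, and to 671 and 761 in the last ones. The log2 fold changes of Cdon, Evc and Gpc3 in these fits ranged from 0.30 to 0.46, from 0.26 to 0.34 and from 0.37 to 0.53, all above 0.

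Levels between genes were compared in TPM, a scale that corrects for transcript length. In sedentary hearts Gas1 was highest at 13.1 ± 1.52 TPM (SD, n = 5). It was followed by Gpc3 at 6.69 ± 1.07 TPM, Smo at 4.49 ± 0.423 TPM, Evc at 3.19 ± 0.578 TPM, Ptch1 at 3.04 ± 0.212 TPM, Cdon at 2.696 ± 0.467 TPM and Boc at 2.05 ± 0.202 TPM. The GLI factors were lowest, with Gli1 at 0.534 ± 0.154 TPM, Gli2 at 0.450 ± 0.0436 TPM and Gli3 at 0.362 ± 0.0497 TPM. The ranges of neighbours in this order did not overlap between Gas1 and Gpc3, between Gpc3 and Smo, and between Boc and Gli1. The ranges of all other neighbours overlapped, although Smo was above Evc and Cdon above Boc within each of the 5 sedentary hearts. The training hearts gave the same order and the same 3 separations, from 16.6 TPM for Gas1 to 0.454 TPM for Gli3 on average.

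**Figure D2:**
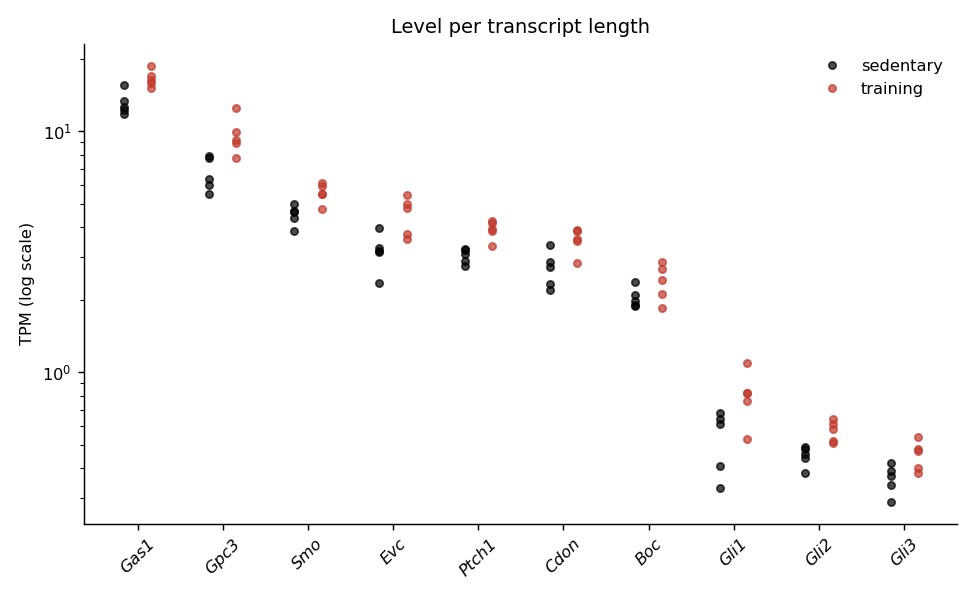
TPM (vertical log axis) of each transcript in 5 sedentary (black) and 5 training (red) hearts, ordered by the sedentary mean. Gas1 lies on top and the 3 GLI factors reach at most 1.09 TPM, below all other genes.

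The other genes of the pathway were read from a list of 75, of which 67 were tested and 8 held too few counts. Shh, a main ligand, had 0 counts in all 10 libraries, and 3 counts, the limit that a count of 0 allows, would be 0.0745 to 0.0995 CPM per library. Over the 10 hearts together the ligand Ihh held 60 counts, the ligand exporter Disp2 85, the ligand-binding antagonist Hhip 29, the glypicans Gpc2 and Gpc5 62 and 1, the target Foxl1 19 and the BMP antagonist Grem1 1 count. Dhh, the remaining ligand, was looked up after its values were known. It was at 1.22 ± 0.309 CPM in training and 1.11 ± 0.214 CPM in sedentary hearts and was not called (log2 fold change 0.14, standard error 0.19, edgeR adjusted p = 0.749).

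Of the 67 tested genes, 2 were called higher and 1 lower, beside 2.75% and 4.26% of all genes. With library totals in place of TMM factors, 7 were called higher and 0 lower. Bmp4, a secreted growth factor and reported GLI target that the study also labelled in its heat maps, ranged from 8.56 to 10.1 CPM in training and from 5.49 to 8.05 CPM in sedentary hearts. These ranges did not overlap, and the log2 fold change was 0.45 (standard error 0.091, edgeR adjusted p = 0.0231). Bbs2, a subunit of the BBSome that carries membrane proteins in the cilium, ranged from 13.0 to 14.8 CPM in training and from 10.8 to 12.0 CPM in sedentary hearts, again without overlap (log2 fold change 0.28, standard error 0.055, edgeR adjusted p = 0.0204). These 2 of the 67 genes stood beside 2.12% of all genes for which every training heart lay above every sedentary heart. Cul3, the ubiquitin ligase scaffold that acts with SPOP on GLI proteins, fell from 160.0 ± 3.44 to 146 ± 4.498 CPM (log2 fold change −0.13, standard error 0.036, edgeR adjusted p = 0.0570). Its range of 142.5 to 152.4 CPM in training hearts lay below that of 155.7 to 164.2 CPM in sedentary hearts. The share of all genes without overlap in that direction was not taken. With library totals the log2 fold change of Cul3 was −0.080 and its call ended (edgeR adjusted p = 0.203), as it did without a filter on low counts (edgeR adjusted p = 0.101). Bmp4 and Bbs2 were called in all 10 fits that left out 1 heart. Cul3 was called in 4 of these fits, and its edgeR adjusted p was 0.129 and 0.104 without training hearts 3 and 4 and 0.115, 0.122, 0.123 and 0.104 without sedentary hearts 2, 3, 4 and 5.

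By role, 1 of 14 reported GLI targets was called higher (Bmp4), 1 of 16 genes of cilium transport was called higher (Bbs2), and 1 of 17 genes of GLI control was called lower (Cul3). With edgeR, 0 of 6 genes of ligands and ligand release, 0 of 4 other receptors and ligand binders and 0 of 10 SMO partners and attenuators were called. At an unadjusted p below 0.05 these last 3 counts were 0, 0 and 1, and DESeq2 called 0 in each. At the same cut, in either direction, there were 2 reported GLI targets, 4 genes of cilium transport and 4 of GLI control. The share of all genes in either direction was not taken at that cut, so these counts have no background. Of the 67 genes, 10 were higher at that cut, beside 9.4% of all genes. DESeq2 called 4 of the 67 genes higher and 1 lower. The additions were Kif7, a kinesin that organizes the tip of the cilium (log2 fold change 0.40, DESeq2 adjusted p = 0.0690, edgeR 0.117), and Dyrk2, a kinase reported to act on GLI factors (log2 fold change 0.19, DESeq2 adjusted p = 0.0886, edgeR 0.137). The median log2 fold change of the 67 genes was 0.057, and 47 of them were above 0. Without sedentary heart 1 the number called was 8 in place of 3, and without training heart 2 it was 5.

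**Figure D3:**
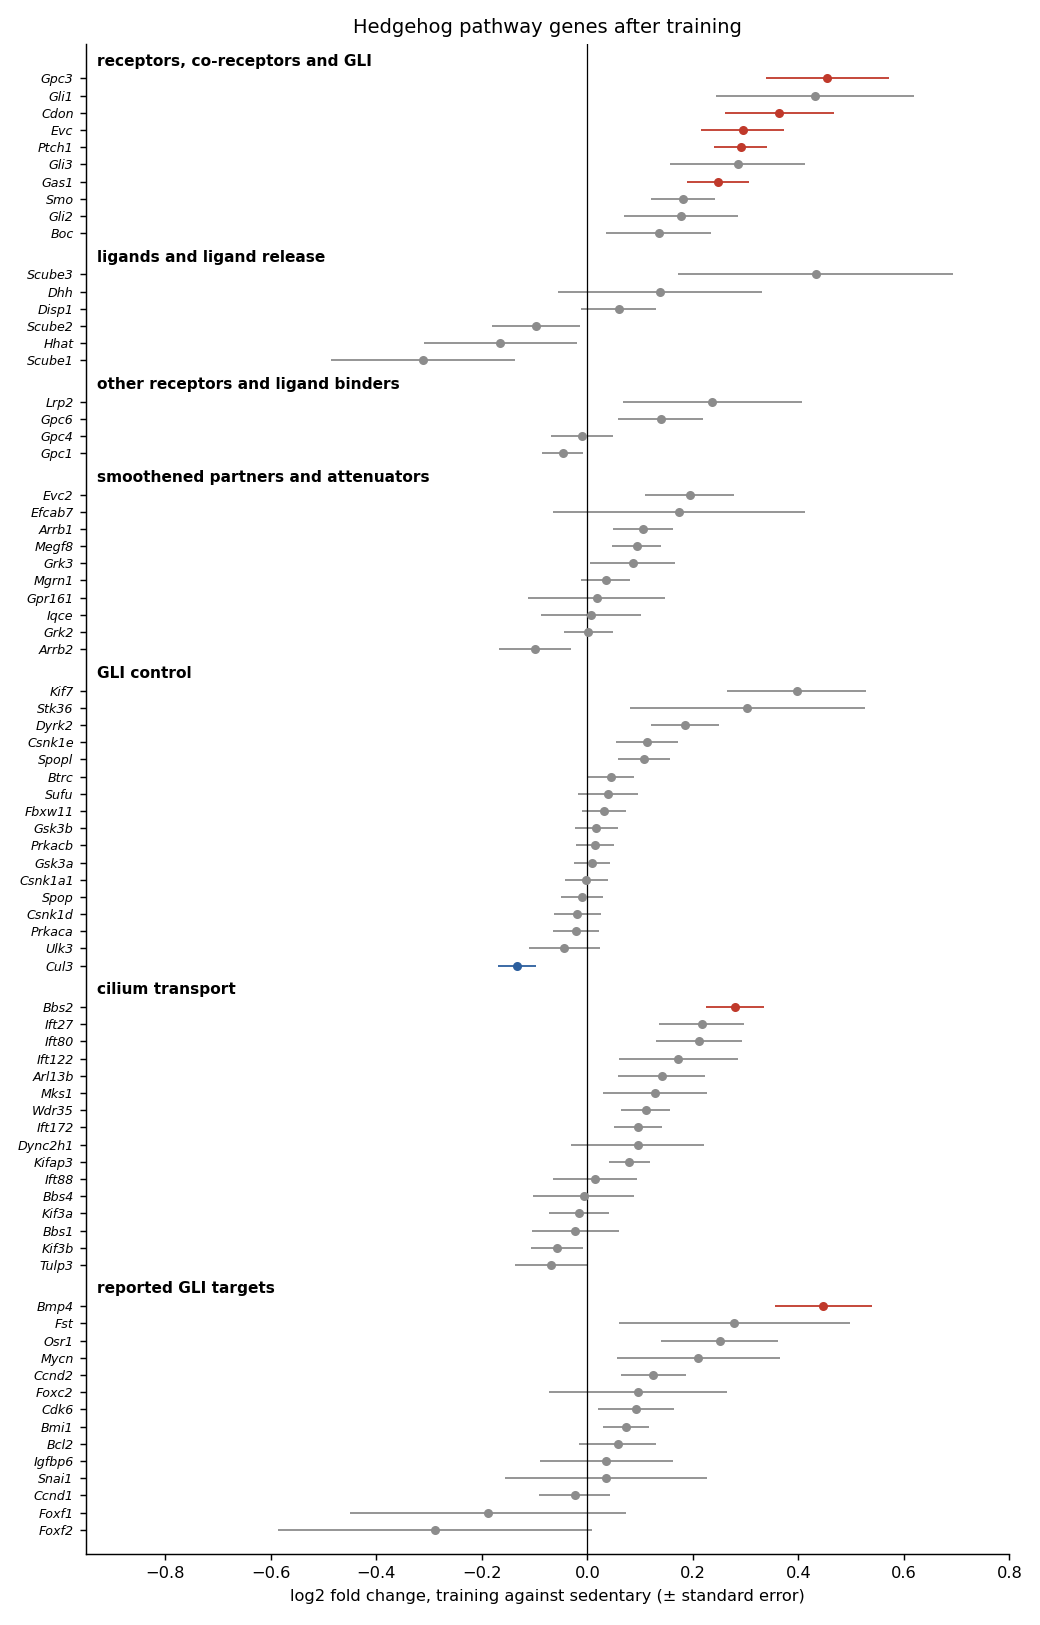
Log2 fold change, training over sedentary (horizontal axis, bars are standard errors of the edgeR fit) for the 10 genes and 67 other pathway genes, 5 hearts per group. Genes called higher are red, called lower blue and not called gray, and most of the other lists lie on both sides of 0.

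Marker genes of other cells moved with the contrast. Of 16 fibroblast markers, 4 were called higher (Pdgfra, Lum, Gsn and Col14a1), with a median log2 fold change of 0.17 and none without counts. DESeq2 called 7 of them higher. Over all genes 2.75% were called higher with edgeR and 3.99% with DESeq2. Pdgfra, Gsn and Col14a1 are also heat map genes of the study, chosen on these hearts. The summed level of the list was 3682 to 4768 CPM in training and 3346 to 3875 CPM in sedentary hearts. Pdgfra, a receptor that marks fibroblasts, ranged from 54.5 to 68.7 CPM in training and from 48.3 to 55.5 CPM in sedentary hearts (log2 fold change 0.24, standard error 0.064, edgeR adjusted p = 0.0627). Tcf21, a fibroblast transcription factor, was at 9.80 ± 2.09 and 7.30 ± 1.20 CPM (edgeR adjusted p = 0.119). Of 7 atrial markers, 3 were called higher (Sln, Dkk3 and Stard10), with a median log2 fold change of 0.50 and none without counts, and DESeq2 also called 3 higher. Their summed level was 5185 to 7792 CPM in training and 2865 to 6969 CPM in sedentary hearts. The atrial genes Nppa, at 3516 ± 581 and 2554 ± 1004 CPM, and Myl7, at 703 ± 117 and 495 ± 176 CPM, were not called (edgeR adjusted p = 0.248 and 0.166). Training heart 3 was highest in both lists, and sedentary heart 1 was the highest sedentary heart in both. Adipocyte markers summed to 20.7 to 172 CPM in training and 18.1 to 139 CPM in sedentary hearts, and all 6 had a log2 fold change above 0 with a median of 0.74, but 0 were called by edgeR, 0 by DESeq2 and 0 at an unadjusted p below 0.05. Of 8 cardiomyocyte markers, edgeR called 1 lower (Actc1) and DESeq2 called 4 lower, all 8 had a log2 fold change below 0, and the median was −0.11. Of 6 endothelial markers, 1 was called lower by both tools (Tie1 with edgeR), 1 had a log2 fold change above 0, and the summed level of 753 to 811 CPM in training hearts did not overlap the 833 to 875 CPM in sedentary hearts. The part of these cell types in the levels of the hedgehog genes was not tested.

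When the mean log2 CPM of the fibroblast markers was added to the edgeR fit as a covariate, 0 of the 10 genes were called, beside 0.11% of all genes called higher. With the atrial score 0 were called beside 0.0906%. The call of each of the 5 genes ended in both fits. At an unadjusted p below 0.05, 2 genes (Ptch1 and Gli3) passed with the fibroblast score and 3 (Ptch1, Smo and Gli3) with the atrial score. The share of all genes at that cut was not taken in these fits, so no background stands beside these counts. DESeq2 was not run with these scores. The median log2 fold change of the 10 genes was 0.14 with the fibroblast score and 0.20 with the atrial score, with median standard errors of 0.10 and 0.11. Ptch1 changed least among the called genes and was at 0.26 (standard error 0.067, edgeR adjusted p = 0.158) with the fibroblast score and at 0.31 (standard error 0.069, edgeR adjusted p = 0.104) with the atrial score. Gas1 was at 0.13 and 0.11, Cdon at 0.16 and 0.15, Evc at 0.17 and 0.20, and Gpc3 at 0.30 and 0.21 on the log2 scale in the same order. Of the genes not called, Smo was at 0.11 and 0.20, Gli1 at 0.11 and 0.31, and Gli2 at 0.040 and 0.037. Gli3 rose from 0.28 to 0.42 and 0.44 (standard error 0.17 in both, edgeR adjusted p = 0.363 and 0.359). Boc turned to −0.079 with the fibroblast score and −0.0012 with the atrial score. Bmp4, Bbs2 and Cul3 were not called in either fit but kept an unadjusted p below 0.05 in both. The scores themselves differ between the groups, so these fits also remove part of the contrast.

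**Figure D4:**
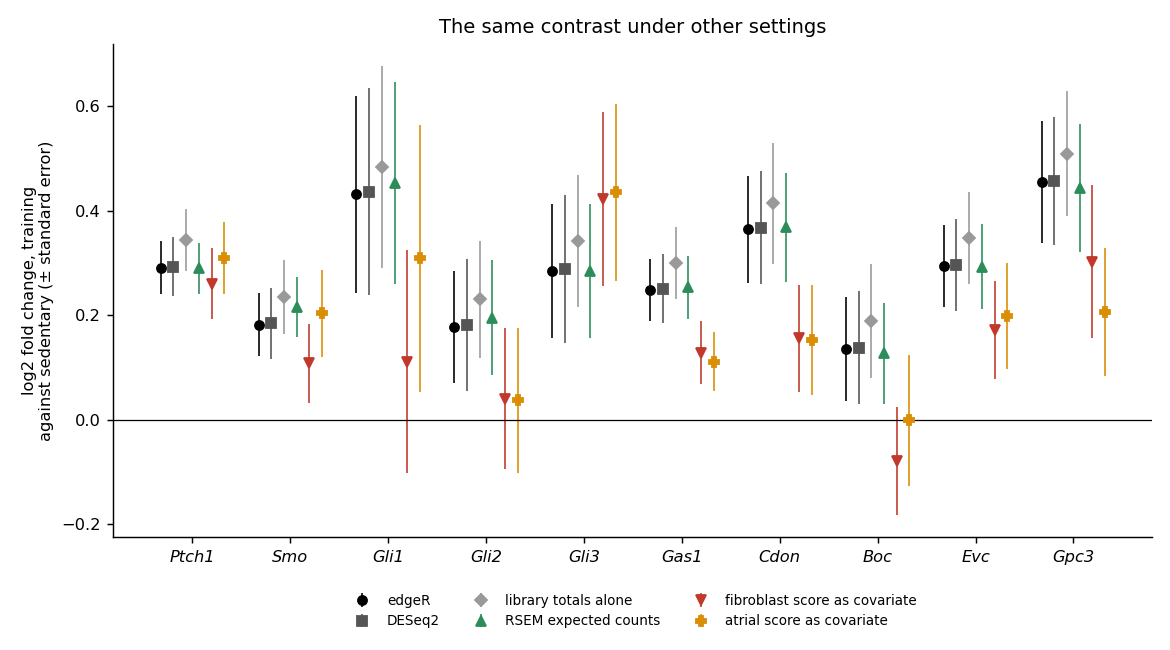
Log2 fold change, training over sedentary (vertical axis, bars are standard errors) of each gene in 6 fits, marked by symbol and color. Scaling and counting changed the values little. Gas1, Cdon, Evc, Gpc3, Gli1 and Gli2 lie lower in both covariate fits, and Boc lies at or below 0 in them. Gli3 lies higher in both, and Smo lies lower with the fibroblast and higher with the atrial score.

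Covariation was examined after each group's mean had been subtracted from log2 CPM, so that the contrast does not enter. The 10 hearts then gave 45 pairs of genes, of which 31 had a Pearson's r above 0. The median r was 0.34, with a range from −0.59 to 0.85. Pairs of other genes were not taken for comparison, so these values have no background. In exact permutation tests over 14400 orders of hearts within groups, 6 pairs had an unadjusted two-sided p below 0.05 and 0 had an adjusted p below 0.1. Each r was also taken without the 2 hearts farthest from the median of 1 gene of the pair, which narrows the range of that gene. The highest r was that of the receptor Ptch1 and the transducer Smo, at 0.85 (exact permutation p = 0.00417, adjusted 0.152), with a Spearman's rho of 0.78 (exact p = 0.0169, adjusted 0.238). It fell to 0.56 without sedentary heart 4, which was low in both, and training heart 1. Boc and Evc had an r of 0.83 (exact permutation p = 0.0264, adjusted 0.198; rho 0.84, exact p = 0.0253, adjusted 0.238) and of 0.74 without training hearts 1 and 3. Gas1 and Gpc3 had an r of 0.74 (exact permutation p = 0.0209, adjusted 0.198) and a rho of 0.75 (exact p = 0.0265, adjusted 0.238), with an r of 0.61 without training heart 3 and sedentary heart 1. Gli1 went with Boc at an r of 0.70 (exact permutation p = 0.00674, adjusted 0.152) and a rho of 0.80 (exact p = 0.00410, adjusted 0.184), and the r was 0.82 without sedentary hearts 2 and 5. Gli1 and Evc had an r of 0.70 (exact permutation p = 0.0240, adjusted 0.198) and a rho of 0.61 (exact p = 0.0532, adjusted 0.331), with an r of 0.66 without the same hearts. Cdon and Boc had an r of 0.64 (exact permutation p = 0.0215, adjusted 0.198) and a rho of 0.53 (exact p = 0.138, adjusted 0.469), with an r of 0.85 without sedentary hearts 1 and 5. These pairs share genes and libraries and are not independent of each other. Gli3 had an r below 0 against the other 9 genes, with a median of −0.32, but no pair of it had an unadjusted exact permutation p below 0.05, and its r with Evc was −0.0086. Its sign against some genes changed when 2 hearts were left out. Without sedentary heart 1 and training heart 4 its r was 0.17 with Cdon, 0.45 with Boc and 0.61 with Evc. Without these hearts its r stayed below 0 with Gas1 (−0.29) and Gpc3 (−0.13). For Ptch1, Smo, Gli1 and Gli2 other hearts were left out, and the r of Gli3 stayed below 0 (−0.32, −0.060, −0.56 and −0.27).

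**Figure D5:**
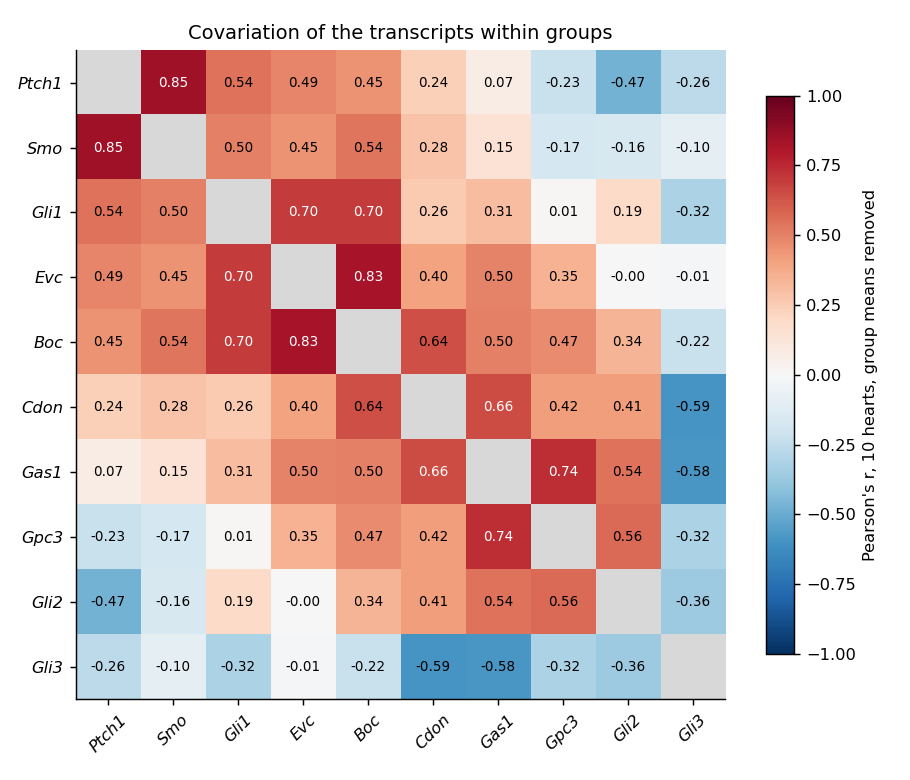
Pearson's r (color, from −1 blue to 1 red, and printed in each cell) between the 10 transcripts over 10 hearts after the group means were removed. Ptch1 and Smo have the highest r of 0.85. The r of Gli3 lies between −0.59 and −0.0086. Without sedentary heart 1 and training heart 4 it was above 0 with Cdon, Boc and Evc and below 0 with Gas1 and Gpc3.

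The marker scores were set against the genes in the same way, in 20 relations with group means removed. Here the 2 hearts left out were those farthest from the median of the score. The fibroblast score had an r above 0 with 9 of the 10 genes and the atrial score with 7. Two-sided exact permutation p values adjusted over the 20 relations fell below 0.1 for 2 of them, and 6 had an unadjusted p below 0.05. Gas1 and the atrial score had an r of 0.87 (exact permutation p = 0.00104, adjusted 0.0208), a rho of 0.87 (exact p = 0.00278, adjusted 0.0556) and an r of 0.83 without sedentary hearts 1 and 2. Boc and the fibroblast score had an r of 0.75 (exact permutation p = 0.00313, adjusted 0.0313), but its rho of 0.73 (exact p = 0.0149) had an adjusted p of 0.120, and the r was 0.56 without sedentary heart 1 and training heart 3. Gas1 and the fibroblast score had an r of 0.78 (exact permutation p = 0.0150, adjusted p at the threshold of 0.1) and a rho of 0.67 (exact p = 0.0576, adjusted 0.170). The r fell to 0.32 without those hearts. Cdon and the fibroblast score had an r of 0.71 (exact permutation p = 0.0343, adjusted 0.132; rho 0.55, exact p = 0.136), which was 0.45 without those hearts. With the atrial score, Gpc3 had an r of 0.69 (exact permutation p = 0.0411, adjusted 0.132; rho 0.74, exact p = 0.0267) and Gli2 of 0.60 (exact permutation p = 0.0285, adjusted 0.132; rho 0.69, exact p = 0.0299), which were 0.84 and 0.73 without sedentary hearts 1 and 2. For Ptch1 the r was 0.29 with the fibroblast score (exact permutation p = 0.445, adjusted 0.524; rho 0.27, exact p = 0.4997) and −0.19 with the atrial score (exact permutation p = 0.684, adjusted 0.720; rho −0.17, exact p = 0.682). Without the same hearts for each score these r were 0.055 and −0.61.

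Genes on the pathway lists were left out of the search for the most alike genes. Among 13044 genes whose mean reached 1 CPM, the 5 most like the mean of the 10 genes within groups were Enpp2 (r = 0.964), which makes lysophosphatidic acid, Slit3 (r = 0.948), a secreted guidance protein, Agmo (r = 0.947), an enzyme that cleaves ether lipids, Dlg4 (r = 0.938), a scaffold known from synapses, and Rbp4 (r = 0.931), the retinol carrier. These are the highest of many values over 10 hearts that share their libraries, and no test was made of them. For single genes the most alike was Map9 for Ptch1 (r = 0.947), Clec12a for Smo (r = 0.970), Myh11 for Gli1 (r = 0.937), Sh3tc2 for Gli2 (r = 0.928) and Ap2a2 for Gli3 (r = 0.905). It was Dock3 for Gas1 (r = 0.960), Pcnx2 for Cdon (r = 0.973), Plekhg3 for Boc (r = 0.962), Msantd7 for Evc (r = 0.973) and Tgfbr3 for Gpc3 (r = 0.909). All of these are group-centred values, and Clec12a, for instance, had a log2 fold change of −0.28 between the groups (edgeR adjusted p = 0.341), opposite in sign to that of Smo.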

How the data were processed

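RNA of 10 whole hearts was sequenced as single reads from directional poly-A libraries in 1 pool. The authors deposited, for each strand, unnormalized gene counts of uniquely mapping reads made with STAR 2.7.10a on GRCm39 and, from RSEM 1.3.3, expected counts, TPM and effective gene lengths, whose strand setting is not given in the sources used here. The reverse-strand counts were used, which held a median of 95.4% of stranded counts. Lines that name no gene were left out. These were multimapping reads (17.9% to 19.2% of all reads in the tables), reads on no gene (4.15% to 4.89%) and ambiguous reads. Symbols and positions came from GENCODE M39, which held 56017 of the 56748 identifiers. Promoter sequence was read from the GRCm39 genome.

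The contrast was fitted with edgeR 4.0.16 in R 4.3.3 (filterByExpr, TMM, quasi-likelihood F test, Benjamini-Hochberg over all genes tested) and genes were called at an FDR below 0.1. Logarithms took a prior count of 2. Expected counts were rounded for the test. Hearts within a group differed beyond counting noise (chi-square per degree of freedom 6.02 to 27.8 between pairs), and errors are those between hearts.

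The members, pathway lists and marker lists were chosen with earlier results of these data known. Named were the 10 genes, other pathway genes that were called or too low to be tested, the most alike genes by the stated rule, and Pdgfra, Tcf21, Nppa and Myl7. Dhh, Kif7, Dyrk2 and the called markers were named after their values were seen. Of the remaining marker lists, edgeR called 0 of 6 epicardial, 0 of 6 macrophage and 0 of 6 Schwann cell genes (1, 0 and 3 at an unadjusted p below 0.05, 0 each by DESeq2). No share of all genes in either direction was taken at that unadjusted cut. Of 7 mural genes, 2 were called higher and 1 lower by either tool.

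A gene of the pathway is left out of the lists and not reported here. The steps were tested on simulated data. Alternatives were DESeq2 1.42.0, its size factors, library totals alone, a filter of at least 10 counts per library or none, expected counts, counts of both strands, the mouse number as a block, the marker scores as covariates, an FDR below 0.05, a prior count of 0.5 and each heart left out.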

Additional observations from a re-analysis of the deposited data

How the results depend on the processing

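The count of 10 hedgehog genes called, 5, was 0 with the fibroblast or the atrial score as a covariate, 3 at an FDR below 0.05 and between 2 and 6 with 1 heart left out. The log2 fold change of Boc, 0.13, was −0.079 and −0.0012 with these scores. The count of genes called over all tested, 1084, was 62 with the fibroblast score, 81 with the atrial score, 505 at an FDR below 0.05 and between 512 and 1490 with 1 heart left out. The count of other pathway genes called, 3, was 5 with DESeq2, 7 with library totals alone (7 higher, 0 lower), 0 with either score (5 and 8 at an unadjusted p below 0.05) and between 2 and 8 with 1 heart left out. For the unadjusted counts with the scores no share of all genes was taken. The cause of these shifts was not tested. The log2 fold changes of the other 9 hedgehog genes and of Bmp4, Bbs2 and Cul3 kept their sign under all 20 alternatives fitted. Smo, not called in the stated fit, was called in 4 of the 20. The median r within groups, 0.34, was between 0.24 and 0.43 with 1 heart left out and at most 0.50 in 14 alternatives.

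With the mouse number as a block, 1137 genes were called (468 higher, 669 lower), 5 of the hedgehog genes and 3 of the other pathway genes. The residuals of hearts with the same number correlated between −0.097 and 0.16, so the numbers were not taken as pairs. Among the 10 genes Gli1 had the lowest count, 45 in a heart.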
